A study of Homo sapiens with 24 samples.

Results

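PAX2, PAX8, LHX1, EMX2, WT1, SIX2, EYA1 and GATA3 are regulators of kidney development, and their mRNA was measured by RNA-seq in renal carcinoma cells exposed to hypoxia, to a ligand of the aryl hydrocarbon receptor (AHR), or to both. The 8 genes were chosen by symbol from the 23106 gene symbols counted in each library, with no cut-off on their counts. Earlier results of these data were known at that point, among them the study's listing of PAX2 as induced by both stimuli. Of these 8, 4 (PAX2, PAX8, LHX1 and SIX2) passed the filter on low counts and were tested among 11735 genes, whereas EMX2, WT1, EYA1 and GATA3 had between 0 and 5 reads in all libraries together. PAX2 was higher in cells given both stimuli than in cells given neither, by 0.75 on the log2 scale. SIX2 was higher in hypoxia than in normoxia when ITE was present, by 0.90 on the log2 scale. Each of these calls was lost when some single libraries were left out. The effects of hypoxia on SIX2 with and without ITE were not shown to differ. Tests of PAX8 and LHX1 did not reach the threshold in any comparison.

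These genes act at successive steps of kidney formation. PAX2 and PAX8 are related paired-box transcription factors that specify the renal lineage from intermediate mesoderm, and LHX1, a LIM homeobox factor, acts with them in the nephric duct and later in forming nephrons. WT1 (a zinc finger factor), EYA1 (a phosphatase and coactivator) and SIX2 (a homeobox factor that works with EYA proteins) belong to the mesenchyme from which nephrons arise, where SIX2 keeps progenitors undifferentiated, and WT1 later marks podocytes. EMX2 (a homeobox factor) and GATA3 (a zinc finger factor) belong to the ureteric bud and the ducts it forms. Pathologists use PAX2 and PAX8 as markers of renal origin in tumours.

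All libraries came from RCC4+VHL cells, a clear cell renal carcinoma line that lost the von Hippel-Lindau (VHL) tumour suppressor and a clone of which was given wild-type VHL back by stable transfection of a plasmid, so that 1 clone stands for the tumour type. Hypoxia-inducible factor (HIF) is then again degraded when oxygen is present. There were 4 groups of 6 replicates, all treated for 6 h: normoxia + DMSO (21% oxygen, 0.1% DMSO), normoxia + ITE (21% oxygen, 100 nM ITE), hypoxia + DMSO (0.5% oxygen, 0.1% DMSO) and hypoxia + ITE (0.5% oxygen, 100 nM ITE). ITE is an indole compound that binds and activates AHR, and DMSO is its solvent. HIF and AHR share the partner HIF-1β/ARNT, and the experiment asked how the 2 pathways act together on gene expression. Comparisons with the same reference group, such as ITE in normoxia and hypoxia with DMSO, share its 6 libraries and are not independent of each other. The study placed PAX2 on a list of genes that had both HIF and AHR sites in its chromatin data and were induced by both stimuli. The induction was read from these same libraries, so the values of PAX2 are no independent evidence of that direction.

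Libraries held between 770094 and 93851342 counted reads, with a median of 7981992.5, and levels are given below as CPM, counts scaled to library size. By raw library totals, a level of 3 counts was worth 0.0320 CPM in the deepest library and 3.90 CPM in the shallowest, which was hypoxia + DMSO replicate 2. Both stimuli were visible: the HIF target NDRG1 rose from 33.2 ± 6.02 (SD, n = 6) to 316 ± 58.6 CPM in hypoxia with DMSO, and the AHR target CYP1B1 from 56.7 ± 7.75 to 322 ± 53.0 CPM with ITE in normoxia. Hypoxia + ITE replicate 6 stood apart. Across 10801 genes its deviations from its group had a rank correlation of 0.66 with GC content, against −0.45 to 0.16 in the other 23 libraries, and keratin and other epithelial markers summed to 4540 CPM in it. Normoxia + DMSO replicate 4 held 48.1 CPM of 5 fibroblast markers, against 0 to 3.33 CPM in the other libraries. The same library had the highest sum of 5 endothelial markers, 3.98 CPM. The part of these features in the results was not tested, and values without each library are given where they matter.

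The cells expressed epithelial markers and some of the listed markers of clear cell carcinoma. All 6 markers of renal epithelium were tested, led by KRT8 (mean 712 CPM) and KRT18 (552 CPM). On the list of clear cell carcinoma markers, VIM averaged 2240 CPM and ANGPTL4 3.85 CPM. Markers of mature tubule segments were mostly missing: 3 of 11 proximal tubule markers passed the filter (HAVCR1, GGT1 and CDH6), none of 9 markers of the distal nephron and collecting duct did, and UMOD, SLC12A1, PVALB and AQP2 had no reads. CA9, a HIF target used to mark tumours without VHL, had 13 reads in all. All were in 1 library, normoxia + DMSO replicate 4, at 0.479 CPM, so they are no trait of that group. This is the library set apart above by its fibroblast markers. The hypoxic groups had none. Markers of endothelium (none of 5 tested) and blood (1 of 6 tested, CD68) summed to at most 3.98 and 31.4 CPM. The endothelial maximum was in normoxia + DMSO replicate 4 as well, and no library of the other groups passed 1.19 CPM.

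The stretches upstream of PAX2, PAX8 and SIX2 are shown because HIF and AHR bind short DNA cores, and these genes are the member on the study's list, the most abundant member and the member that passed the test of hypoxia. Each is the 250 bases before a RefSeq start site, taken from a table built on GRCh38.p14, matched letter for letter to GRCh37, the build of the counts, and printed 5′ to 3′ on the gene's strand. PAX2 has 2 such stretches, at chr10:102494903-102495152 and chr10:102505089-102505338 on the plus strand. Those of PAX8 and SIX2 are at chr2:114036499-114036748 and chr2:45236592-45236841 on the minus strand. Capitals mark ACGTG, the core of a hypoxia response element, and GCGTG, the core of an AHR element that also occurs in hypoxia response elements, on either strand.
PAX2 upstream 1: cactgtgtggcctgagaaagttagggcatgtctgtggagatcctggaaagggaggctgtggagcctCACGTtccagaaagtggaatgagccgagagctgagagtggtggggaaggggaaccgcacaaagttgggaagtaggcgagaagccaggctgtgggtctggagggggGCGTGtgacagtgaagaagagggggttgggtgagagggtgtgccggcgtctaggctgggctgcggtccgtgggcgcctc
PAX2 upstream 2: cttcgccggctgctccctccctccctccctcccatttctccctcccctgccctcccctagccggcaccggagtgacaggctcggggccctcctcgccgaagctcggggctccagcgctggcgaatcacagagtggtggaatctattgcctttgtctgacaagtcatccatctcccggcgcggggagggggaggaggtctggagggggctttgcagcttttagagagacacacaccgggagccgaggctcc
PAX8: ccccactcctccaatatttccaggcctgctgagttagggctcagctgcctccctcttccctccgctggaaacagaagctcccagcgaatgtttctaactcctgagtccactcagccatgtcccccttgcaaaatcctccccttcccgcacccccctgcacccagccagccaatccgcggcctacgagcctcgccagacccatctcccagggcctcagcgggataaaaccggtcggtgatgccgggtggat
SIX2: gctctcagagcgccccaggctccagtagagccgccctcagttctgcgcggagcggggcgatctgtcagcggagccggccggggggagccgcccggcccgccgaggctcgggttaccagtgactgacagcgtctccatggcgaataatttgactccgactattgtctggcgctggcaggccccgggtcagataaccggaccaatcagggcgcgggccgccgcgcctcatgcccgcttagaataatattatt
The first PAX2 stretch held 1 ACGTG, on the minus strand 184 bases before the start, and 1 GCGTG on the plus strand 79 bases before it. The second PAX2 stretch and those of PAX8 and SIX2 held neither. Of 35116 human stretches of the same length, 18.5% held ACGTG, 32.2% held GCGTG and 7.5% held both, so such letters are common and their presence here is a description of sequence only. Stretches were matched for 6 of the 8 genes, and LHX1 and EYA1 were not among them.

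Levels differed widely among the genes. Per kilobase of the longest annotated transcript and averaged over 24 libraries, PAX8 was at 60.0 CPM, PAX2 at 9.12, SIX2 at 2.83 and LHX1 at 0.418. This order held in 24 of 24 libraries for each neighbouring pair. The least and most variable of these genes differed too: within normoxia + DMSO the coefficient of variation was 7.20% for PAX8, 28.9% for PAX2, 21.5% for SIX2 and 37.5% for LHX1.

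**Figure D1:**
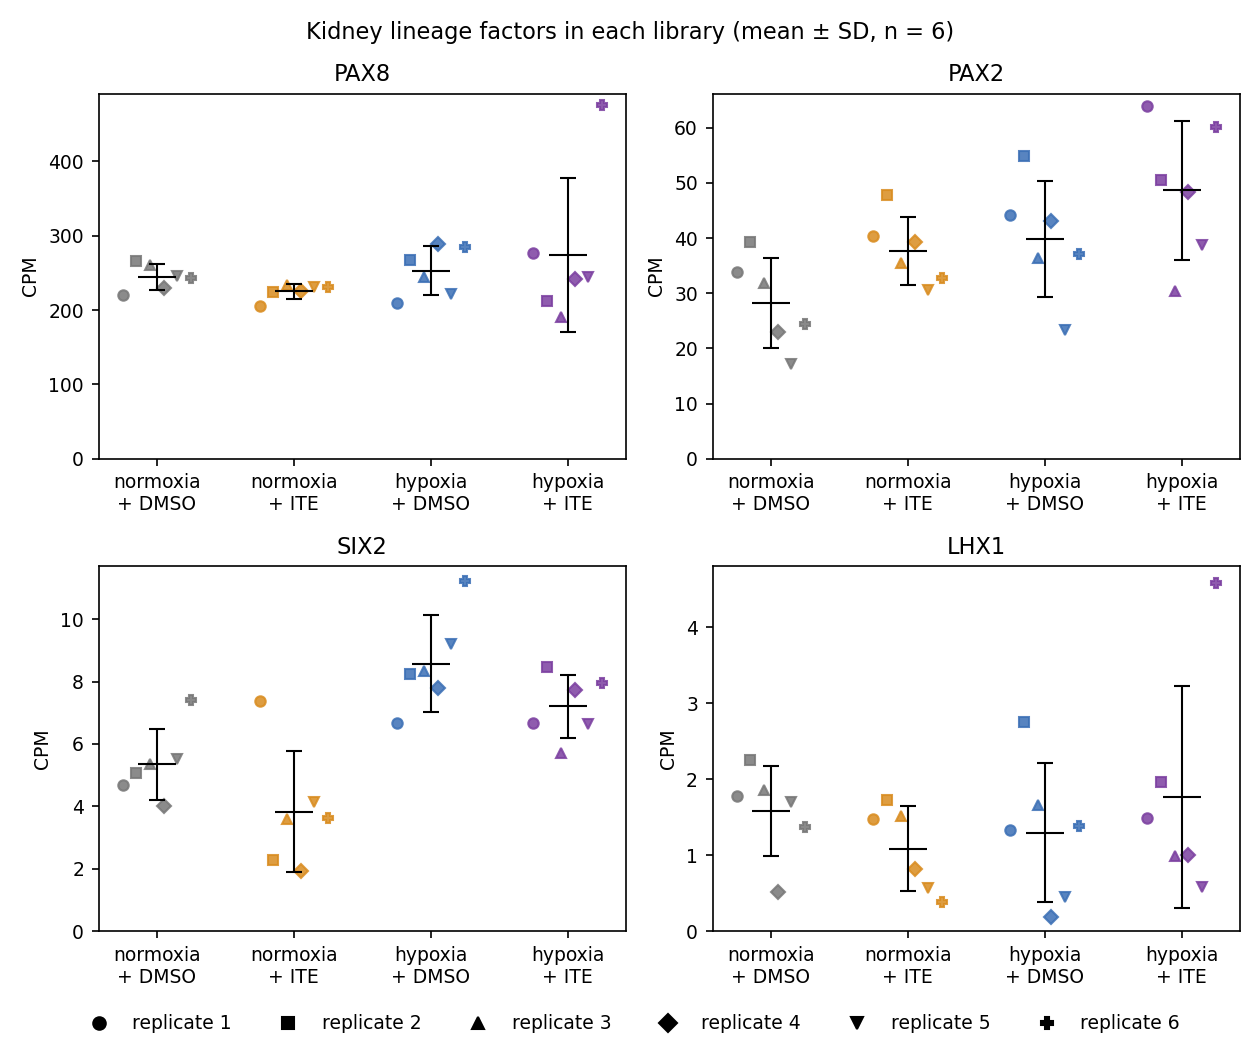
Level of PAX8, PAX2, SIX2 and LHX1 in CPM (linear axes from 0) in each of 24 libraries by group, with a marker shape for each replicate number and black bars for mean ± SD (n = 6). PAX2 spans 17.1 to 39.2 CPM in normoxia + DMSO and 30.4 to 63.9 CPM in hypoxia + ITE, and hypoxia + ITE replicate 6 is the highest library of its group for PAX8 (476 CPM) and LHX1 (4.59 CPM).

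PAX2 (ENSG00000075891, GRCh37 chr10:102495153-102589701, plus strand) was lowest in normoxia + DMSO, with 17.1 CPM in the lowest library, a median of 28.2 and 39.2 in the highest. Libraries of normoxia + ITE ran from 30.6 through a median of 37.3 to 47.8 CPM, and those of hypoxia + DMSO from 23.3 through 40.1 to 55.0 CPM. Hypoxia + ITE had the highest libraries, from 30.4 through a median of 49.5 to 63.9 CPM. The groups formed a step from neither stimulus, through 1 stimulus, to both, but each overlapped every other. Replicate 5 was the lowest library and replicate 2 the highest in normoxia + DMSO, normoxia + ITE and hypoxia + DMSO, while in hypoxia + ITE these were replicates 3 and 1.

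With both stimuli, PAX2 averaged 48.7 ± 12.6 CPM against 28.3 ± 8.16 CPM with neither (SD, n = 6), a log2 fold change of 0.75 ± 0.20 (SE) with a 95% interval from 0.35 to 1.16 and an adjusted p of 0.037 in edgeR's quasi-likelihood test. All 6 libraries given both stimuli were above the median of those given neither. In bulk RNA, more cells expressing a gene and more RNA per cell cannot be told apart. PAX2 was the only 1 of the 8 genes to pass in this comparison, in which 2.32% of all tested genes passed and 1.79% passed as higher. The call was lost when normoxia + DMSO replicate 3, 4, 5 or 6 was left out (adjusted p 0.0569, 0.0899, 0.093 and 0.094) and when hypoxia + ITE replicate 2 or 6 was (0.0588 and 0.0699). Without replicate 6 of hypoxia + ITE, which held 60.1 CPM of PAX2, the log2 fold change was 0.66. It was 0.67 with offsets for GC content and length (adjusted p 0.0599), in a gene whose transcript has 63.6% GC, and 0.76 when the fit held the compared groups alone (adjusted p 0.173). Across the alternatives the adjusted p ranged from 0.00275 to 0.197.

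For each stimulus alone the PAX2 values were closer to those with neither. With ITE in normoxia the mean was 37.7 ± 6.17 CPM against 28.3 CPM, a log2 fold change of 0.40 ± 0.20 (SE), with 6 of 6 ITE libraries above the DMSO median and an unadjusted p of 0.0492 that became 1 after adjustment in edgeR. Hypoxia with DMSO gave 39.9 ± 10.5 CPM, a log2 fold change of 0.44 ± 0.20 (SE), with 5 of 6 libraries above the median of normoxia and an adjusted p of 0.485 in edgeR. Neither passed the threshold in this fit. In the presence of the other stimulus the differences were 0.35 for hypoxia (adjusted p 0.324) and 0.32 for ITE (adjusted p 0.6, both edgeR). The interaction, which asks whether the effect of ITE depends on oxygen, was −0.09 with a 95% interval from −0.66 to 0.49 (adjusted p 0.979, edgeR).

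No member passed the test for ITE in normoxia, where edgeR called 0.0511% of genes, and the number of members at an unadjusted p under 0.05 was 1 (PAX2), where 1.46% of all genes were. None passed for hypoxia with DMSO, where 1.3% of genes were called, and 2 members (PAX2 and SIX2) had an unadjusted p under 0.05, against 9.47% of all genes. None passed for ITE in hypoxia, where 0.0597% of genes were called and 0 members had an unadjusted p under 0.05, against 9.56% of all genes. For the interaction no gene at all was called (0%), 374 genes (3.19%) had an unadjusted p under 0.05 and 0 of them were members. DESeq2 called 0 members in these 4 comparisons as well, while some other settings called 1 member (PAX2 or SIX2) for ITE in normoxia or for hypoxia with DMSO, SIX2 with sample quality weights among them (adjusted p 0.00135).

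**Figure D2:**
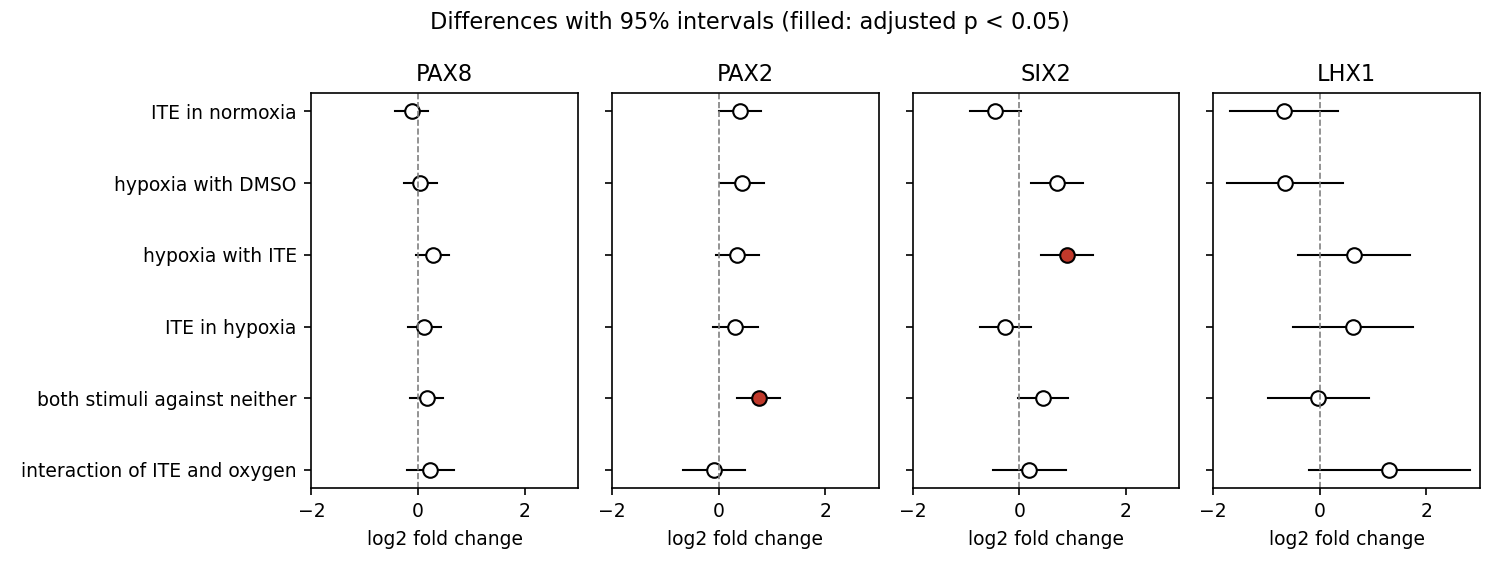
Log2 fold change (points) with its 95% interval (lines) from edgeR for PAX8, PAX2, SIX2 and LHX1 in 6 comparisons of 6 libraries a group, where the interaction is a difference of log2 fold changes. Filled points passed an adjusted p of 0.05: PAX2 with both stimuli against neither (0.75) and SIX2 for hypoxia with ITE (0.90).

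PAX8 (ENSG00000125618, chr2:113973574-114036498, minus strand) was the most abundant of these genes. Its libraries ran from 220 through a median of 245 to 265 CPM in normoxia + DMSO and from 206 through 228 to 233 CPM in normoxia + ITE. In hypoxia they ran from 210 through 256 to 288 CPM with DMSO and from 191 through 243 to 476 CPM with ITE. The groups overlapped throughout, and the value of 476 CPM belonged to hypoxia + ITE replicate 6, with the next library of that group at 277 CPM. Log2 fold changes lay between −0.12 (ITE in normoxia, SE 0.15) and 0.28 (hypoxia with ITE, SE 0.15), and the lowest adjusted p was 0.302 (edgeR). The 95% interval for hypoxia with DMSO ran from −0.26 to 0.36. An antisense gene, PAX8-AS1 (listed as LOC654433), overlaps 96.3% of the span of PAX8 and averaged 11.9 CPM. The library kit keeps strand, but the strand setting of the counting is not given in the sources used here, and without it reads of the pair cannot be told apart.

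Within a library, the ratio of PAX2 to PAX8 reads does not depend on the scaling between libraries. It averaged 0.116 ± 0.0321 (SD, n = 6) in normoxia + DMSO and 0.168 ± 0.0316 in normoxia + ITE. In hypoxia it averaged 0.158 ± 0.0416 with DMSO and 0.185 ± 0.0445 with ITE. The order of the groups in this ratio thus differed from that of PAX2 itself, with normoxia + ITE above hypoxia + DMSO, and all 4 ranges overlapped. The ratio was not tested.

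LHX1 (ENSG00000273706, chr17:35294084-35301912, plus strand) was at the edge of detection, with 665 reads over all libraries and as few as 1 in a library. Its libraries ran from 0.516 through a median of 1.74 to 2.25 CPM in normoxia + DMSO and from 0.383 through 1.15 to 1.72 CPM in normoxia + ITE. In hypoxia they ran from 0.190 through 1.36 to 2.75 CPM with DMSO and from 0.578 through 1.24 to 4.59 CPM with ITE. The highest value was again hypoxia + ITE replicate 6, followed by 1.97 CPM. Log2 fold changes of −0.67 for ITE in normoxia and 0.63 for ITE in hypoxia had opposite signs, and their difference, 1.30 ± 0.74 (SE), had an adjusted p of 0.915 (edgeR). At this depth the interval for ITE in normoxia, from −1.68 to 0.33, is too wide to show a change of moderate size.

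SIX2 (ENSG00000170577, chr2:45232321-45236591, minus strand) had its higher levels in the hypoxic groups. Its libraries ran from 4.01 through a median of 5.21 to 7.41 CPM in normoxia + DMSO and from 1.91 through 3.61 to 7.39 CPM in normoxia + ITE. In hypoxia + DMSO they ran from 6.66 through 8.29 to 11.2 CPM, and in hypoxia + ITE from 5.72 through 7.21 to 8.45 CPM. In each solvent or ligand the hypoxic libraries were mostly above the normoxic ones, with the highest normoxic library (replicate 6 with DMSO, replicate 1 with ITE) reaching into the hypoxic range.

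With ITE present, hypoxia raised SIX2 from 3.83 ± 1.94 to 7.20 ± 1.02 CPM (SD, n = 6), a log2 fold change of 0.90 ± 0.24 (SE) with a 95% interval from 0.41 to 1.39 and an adjusted p of 0.0406 in edgeR's quasi-likelihood test. All 6 hypoxic libraries were above the normoxic median. SIX2 was the only 1 of the 8 genes called here, where 2.35% of all tested genes passed and 1.89% passed as higher. The call rested on many libraries: it was lost without normoxia + DMSO replicate 2 or 3 (adjusted p 0.0521 and 0.0529), without normoxia + ITE replicate 2, 3, 4, 5 or 6 (0.0998, 0.0886, 0.103, 0.0791 and 0.0893), without hypoxia + DMSO replicate 3 or 5 (0.0505 and 0.0506) and without hypoxia + ITE replicate 2 or 6 (0.0695 and 0.0541). Offsets for GC content and length lowered the log2 fold change to 0.64 (adjusted p 0.168), in a transcript of 61.5% GC. Without the filter on low counts the adjusted p was 0.0583, and with the compared groups alone it was 0.24, while the range over all alternatives was 0.000251 to 0.27.

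With DMSO the mean of SIX2 was 8.58 ± 1.54 CPM in hypoxia against 5.34 ± 1.15 CPM in normoxia, a log2 fold change of 0.71 ± 0.24 (SE) whose unadjusted p of 0.00553 became 0.203 after adjustment in edgeR. All 6 hypoxic libraries were above the normoxic median here too. The 2 effects of hypoxia differed by 0.19 with an interval from −0.49 to 0.87 (adjusted p 0.946, edgeR), so no difference between them was shown. ITE went with lower values of SIX2, by −0.45 in normoxia (unadjusted p 0.0674) and −0.26 in hypoxia (unadjusted p 0.285, both edgeR), where PAX2 values were 0.40 and 0.32. Neither SIX2 difference passed the test.

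The other 4 genes were at or close to 0. GATA3 (chr10:8087341-8117161) had no read among 496748449, which allows a level of up to 0.00604 CPM over all libraries. EMX2 (chr10:119301956-119309057) had 1 read, in hypoxia + ITE replicate 3. WT1 (chr11:32409321-32457110) had 2 reads, 1 each in normoxia + DMSO replicate 4 and hypoxia + ITE replicate 2. EYA1 (chr8:72109668-72504260) had 5 reads in 4 libraries, at most 2 in one. These floors cover counting error only. Normoxia + DMSO replicate 4, the library with fibroblast markers, held 1 of the 2 WT1 reads, 1 of the 5 EYA1 reads and 3 of the 4 reads of EMX2OS, the antisense partner of EMX2. In a fit without the filter on low counts, EMX2, WT1 and EYA1 had unadjusted p-values of 0.136 or more in every comparison (edgeR), from at most 5 reads a gene, and GATA3 gave no value.

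Among the 5 genes whose levels followed PAX2 most closely over the 24 libraries were FAM65C (Pearson r 0.91, Spearman rho 0.90), LTBP3 (0.81 and 0.81), LIPC (0.80 and 0.79) and EIF4B (0.80 and 0.84), by log2 CPM. Without the 2 libraries farthest from the PAX2 median, r was 0.86 for FAM65C, 0.75 for LTBP3, 0.72 for LIPC and 0.68 for EIF4B. These are descriptions over libraries that share depth, composition and treatment. FAM65C is also on the study's list of genes bound by both factors and induced by both stimuli, with the induction read from these libraries. Its mean was 15.1 ± 6.58 CPM with neither stimulus and 29.4 ± 13.5 CPM with both (log2 fold change 0.90 ± 0.33 SE, adjusted p 0.139, edgeR). LTBP3, a binding protein of latent TGF-β, averaged 70.6 CPM over all libraries, with a log2 fold change of 0.39 ± 0.23 (SE) in the same comparison (adjusted p 0.354, edgeR). Neither gene passed the test in any of the 6 comparisons.

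**Figure D3:**
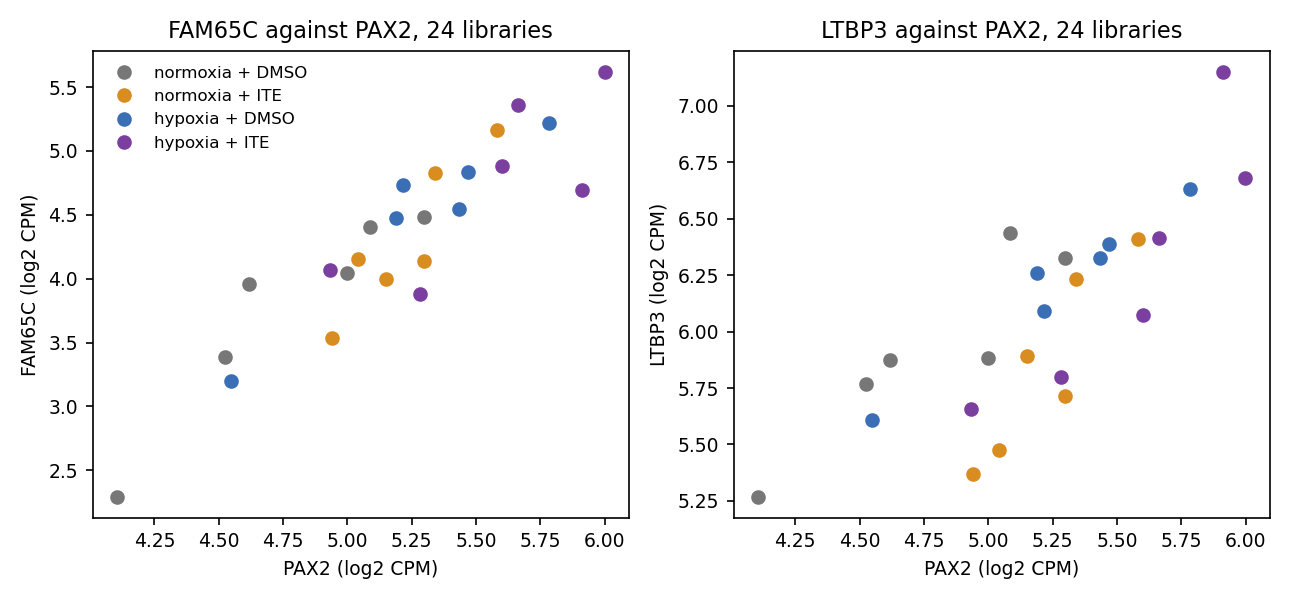
Log2 CPM of FAM65C (left) and LTBP3 (right) against log2 CPM of PAX2, 1 point a library and 1 colour a group. Libraries with more PAX2 have more of both genes (r 0.91 and 0.81 over 24 libraries), and the points of the 4 groups overlap.

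The other members tracked different genes. PAX2 itself had r of 0.38 with PAX8, 0.35 with LHX1 and 0.13 with SIX2 over the same libraries. Closest to SIX2 were CLK3 (r 0.82), TRIB3 (0.81) and ZHX2 (0.81), and these 3 rose in hypoxia with DMSO, by 0.57, 0.89 and 1.24 (adjusted p 0.0117, 0.00221 and 5.03e-06, edgeR). They were picked on these same libraries with the group differences left in. SIX2 itself had higher values in hypoxia, so their rise is no separate evidence of a response around SIX2. Closest to PAX8 were MMS19 (r 0.92), ST3GAL1 (0.91) and IGF2BP2 (0.90), and without hypoxia + ITE replicates 3 and 6 these fell to 0.69, 0.73 and 0.64. Closest to LHX1 were FAM211B (r 0.80), C1QTNF6 (0.75) and RHBDD2 (0.74).

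Genes that work beside these factors in the developing kidney were present in part. Of 15 genes of the metanephric mesenchyme and nephron progenitors, 6 were tested and none passed in any comparison: HOXC10 averaged 28.9 CPM, HOXA10 21.1 and SALL1 12.2, all transcription factors. Of 15 transcription factors of nephron segments, 9 were tested, IRX3 at 16.2 CPM and KLF5 at 15.0 CPM among them, and none passed. Of 11 podocyte and stromal genes, 5 were tested and none passed, with SYNPO at 72.9 CPM and the stromal factor FOXD1 at 39.5 CPM, while the slit diaphragm gene NPHS1 had no reads. Medians of the log2 fold change of the tested genes in these 3 lists lay between −0.28 and 0.39 over the 5 comparisons of groups, against −0.003 to 0.02 for all tested genes.

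Among 18 genes of the ureteric bud and RET signalling, 8 were tested. SPRY1, an inhibitor of RET and other growth factor receptors, was the only one called, with libraries from 0.147 to 0.446 CPM in normoxia + DMSO and from 4.12 to 7.55 CPM in hypoxia + DMSO. The groups did not overlap, and the log2 fold change was 4.02 ± 0.37 (SE, adjusted p 1.41e-08, edgeR). Counts were low, with 997 reads of SPRY1 over all libraries. The lowest hypoxic value was itself 3 counts, in the shallowest library of that group. Those are worth 3.90 CPM by its raw total and 4.12 CPM after scaling between libraries. In that library the separation from normoxia thus rests on 3 counts. With ITE present SPRY1 rose by 3.37 in hypoxia (adjusted p 3.23e-06), and with both stimuli against neither by 3.04 (adjusted p 1.82e-06, edgeR). These 3 calls held under every alternative that gave SPRY1 an adjusted p. Among all tested genes, 1.3%, 2.35% and 2.32% were called in the same 3 comparisons. RET and its ligand GDNF had 2 reads each, while GFRA1, the coreceptor of GDNF, averaged 353 CPM and did not pass in any comparison.

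**Figure D4:**
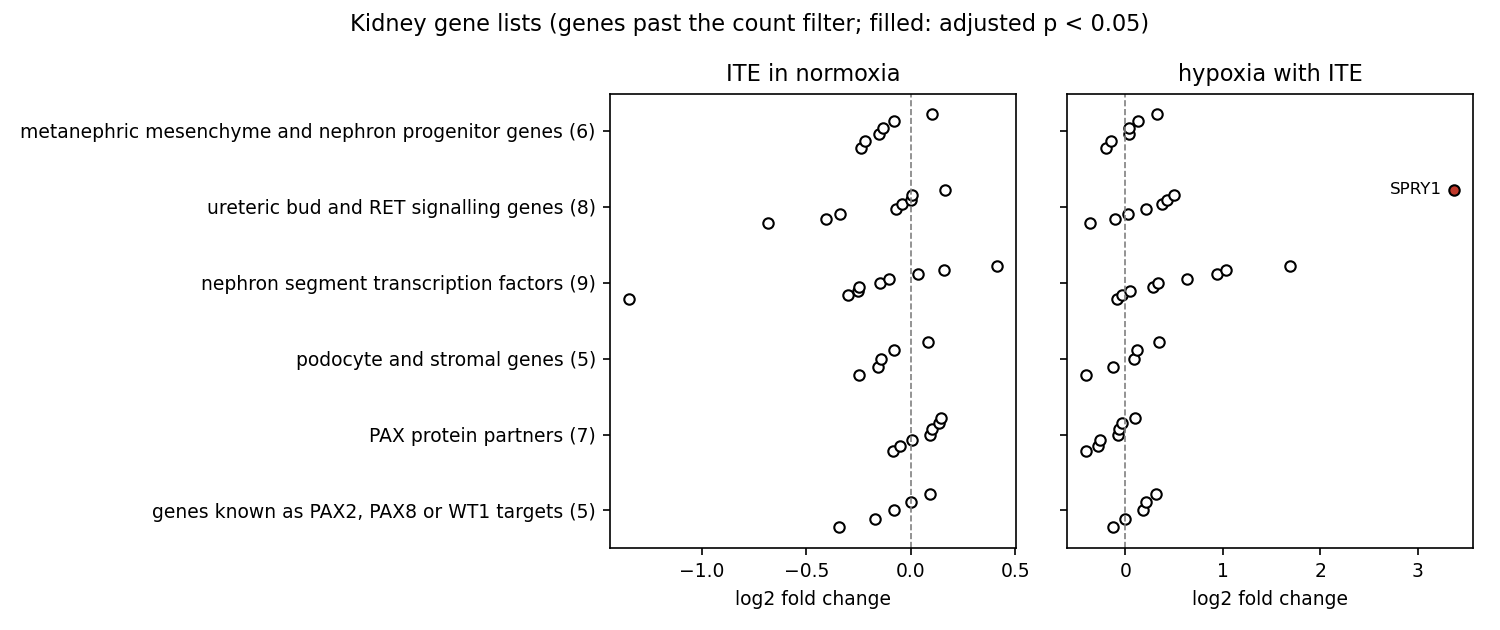
Log2 fold change for ITE in normoxia (left) and hypoxia with ITE (right) of each gene past the count filter in 6 kidney lists, with the number of such genes in brackets and lists overlapping in some genes. SPRY1 (3.37) is the only filled point, meaning an adjusted p under 0.05 in edgeR.

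Partners and known targets of the PAX proteins were mostly expressed, and none passed the test. Of 10 partners, KMT2C and KMT2D were not matched by symbol and not analysed here, and 7 of the other 8 were tested, including PAXIP1 (43.4 CPM), which links PAX2 to a histone methyltransferase complex, its complex members WDR5 (117 CPM) and ASH2L (31.9 CPM), and the PAX-binding MITF (63.9 CPM). None passed in any of the 6 comparisons. Of 12 genes known as targets of PAX2, PAX8 or WT1, 5 were tested and none passed: CCND1 (187 CPM), BCL2 (46.5 CPM), PODXL (43.7 CPM), the kidney cadherin CDH16 (13.7 CPM) and WNT4 (2.02 CPM). The thyroid targets TG and SLC5A5 had 1 and 3 reads.

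Of 6 marker genes of clear cell carcinoma 5 were tested, and 2 rose in hypoxia. Among all tested genes, 1.3% were called for hypoxia with DMSO, 2.35% for hypoxia with ITE and 2.32% with both stimuli against neither. PLIN2, a lipid droplet protein, rose from 69.5 ± 4.40 to 233 ± 32.7 CPM in hypoxia with DMSO (log2 fold change 1.74, adjusted p at most 5.3e-08 under every alternative run, edgeR) and by 1.59 in hypoxia with ITE. ANGPTL4 rose by 2.40 and 3.47 in the same comparisons, and each call was lost in some settings, the second in 1 of 34 and the first in DESeq2 and without normoxia + DMSO replicate 1, 2 or 3 or hypoxia + DMSO replicate 5 or 6 (adjusted p up to 0.104). KRT19, from the list of renal epithelium markers and not from this one, rose by 0.89 in hypoxia with ITE (adjusted p 0.0375, edgeR). Hypoxia + ITE replicate 6 reached 828 CPM of KRT19 beside a group median of 253 CPM, and without that replicate the call was lost (log2 fold change 0.42, adjusted p 0.063). It was also lost without hypoxia + ITE replicate 3 (adjusted p 0.059) or any 1 of the 6 normoxia + ITE libraries (adjusted p 0.0569 to 0.0833). With both stimuli against neither, PLIN2 rose by 1.44 and ANGPTL4 by 2.42 (lost without normoxia + DMSO replicate 2 or 3, adjusted p 0.0504 and 0.0569, and with the compared groups alone, 0.083), and NNMT, a methyltransferase raised in this cancer, rose by 0.73 (adjusted p 0.0469, edgeR), a call lost in 25 of 34 alternatives.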

How the data were processed

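Poly-A RNA of 24 libraries was prepared with a directional kit and sequenced. Per the labels and the submitters' processing notes, the authors trimmed adaptors with Trim Galore 0.3.3, aligned reads to GRCh37 with HISAT2 2.05, used Picard 2.0.1 and counted reads per gene symbol with HTSeq 0.5.4p3. The deposited values are raw counts, not normalised. Each file holds 1 library, and groups and replicate numbers were taken from the sample titles. The study's methods call the replicates independent, and the labels do not say whether each was a separate culture, so p-values measure the spread between these samples.

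Counts were analysed in R 4.3.3 with edgeR 4.0.16 and limma 3.58.1. Genes were filtered by filterByExpr with a minimum count of 10, libraries scaled by TMM, and 1 mean per group fitted to all 24 libraries by the quasi-likelihood method, with two-sided tests, Benjamini-Hochberg adjustment over 11735 genes and a threshold of 0.05. CPM values are on the TMM scale, and log2 CPM used a prior count of 2. Alternatives were DESeq2 1.42.0, RLE scaling, no filter, an adjusted p under 0.1, a replicate block, the compared groups alone, weights for library quality, an offset spline (5 degrees of freedom) on transcript GC and length (known for 92.0% of genes) and leaving out libraries. On simulated data the fit was tested and its settings kept. The factors and gene lists were chosen with earlier results of these data known. Named genes are the 8 factors, list genes past the threshold or of highest level, the 5 genes closest to PAX2 and 3 closest to each other tested factor by Pearson correlation, and NDRG1 and CYP1B1, and some of these genes are not reported here. Lengths and positions came from GENCODE annotation lifted to GRCh37. Depth intervals and floors (3 counts) cover counting error only. Chromatin data of the study were not used here.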

Additional observations from a re-analysis of the deposited data

Results flagged for a closer look

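Among 16 groups of 6 libraries (4 genes in 4 groups), 3 held a library farther from the rest than Dixon's critical value, where chance gives 0.8 such groups. In normoxia + ITE, replicate 1 was lowest for PAX8, with 206 CPM beside 225 CPM in the next library. In hypoxia + ITE, replicate 6 was highest for PAX8, with 476 CPM beside 277 CPM in the next, and for LHX1, with 4.59 CPM beside 1.97 CPM.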

How the results depend on the processing

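The call of PAX2 with both stimuli held in 18 of the 24 fits that left out a library and that of SIX2 for hypoxia with ITE in 13, so the number of members called ranged from 0 to 1 in both. Under other settings the number of members called changed as follows. For ITE in normoxia it was 1 (PAX2, 0.44, adjusted p 0.00206) with the compared groups alone and a replicate block. For hypoxia with DMSO it was 1 with sample quality weights (SIX2, 0.79, adjusted p 0.00135), with the compared groups alone and a block (PAX2, 0.50, adjusted p 0.0482) and with GC and length offsets and a block (PAX2, 0.63, adjusted p 0.0114). For hypoxia with ITE it was 0 without the filter, with the compared groups alone (with or without the block), with the offsets (with or without it) and without hypoxia + ITE replicate 6 and hypoxia + DMSO replicate 2 together. With both stimuli it was 0 with the compared groups alone (with or without the block), with the offsets alone and without both libraries, and 2 with quality weights (SIX2, 0.54, adjusted p 0.0179). The block in all 24 libraries left the number of members called at 0, 0, 1, 0, 1 and 0 (PAX2 0.79, adjusted p 0.00384; SIX2 0.98, adjusted p 0.0307). Same-numbered libraries had deviations that correlated by −0.18 to 0.43, and in no comparison did every pair exceed 0.1, so the numbers were not taken as pairs. Some matching was present: the best match bore the same number for 5 of 6 libraries for ITE in normoxia and 4 for hypoxia with DMSO, against 3, 1 and 2 in the other comparisons of groups. PAX2 was higher in 6 of 6 same-numbered pairs in those first 2 comparisons, and in 5, 4 and 5 in the others. The cause of the changes in members called was not tested. Values that changed sign were all uncalled. For PAX8 and ITE in hypoxia they were −0.11 (weights), −0.089 (offsets), −0.093 (offsets and block), −0.10 (both libraries out) and −0.12 to 0.21 (each library out). For PAX8 with both stimuli they were −0.036, −0.078 and −0.077 to 0.25 (weights, both libraries out, each out). For LHX1 with both stimuli they were 0.093 (DESeq2), 0.086 (block), 0.018 (no filter), 0.043 (offsets and block) and −0.44 to 0.19 (each out). For the interaction they were 0.17 (weights) and −0.22 to 0.038 (each out) for PAX2, −0.031 (offsets) and −0.033 (offsets and block) for PAX8 and −0.085 (offsets) for SIX2. The genes called of all tested numbered 6 for ITE in normoxia (up to 255 with the compared groups alone and a block), 152 for hypoxia with DMSO (up to 840 with quality weights), 276 for hypoxia with ITE (55 with the compared groups alone and a block, 677 with DESeq2), 7 for ITE in hypoxia (1 with the compared groups alone) and 272 with both stimuli (58 and 721). EMX2, WT1 and EYA1 entered only the fit without the filter, from at most 5 reads each, GATA3 entered none, and LHX1 was limited by depth.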

Other observations

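Relatives of the lineage factors were unequally expressed. Of 28 paralogues, 14 had no read in any library and 8 were tested, and none of these passed the test in any of the 6 comparisons. Relatives of SIX2 and EYA1, whose proteins act together, were present as SIX5 (25.0 CPM) and SIX4 (2.04 CPM) beside SIX2 (6.24 CPM), and as EYA3 at 30.2 CPM, while EYA1 had 5 reads and EYA2 and EYA4 had 0. PAX2 and PAX8 were the only PAX genes tested. PAX6 had 401 reads, and the other 6 relatives (PAX1, PAX3, PAX4, PAX5, PAX7 and PAX9) had 0. Where EMX2 and GATA3 had 1 and 0 reads, EMX1 averaged 3.59 CPM and GATA6 6.03 CPM. LHX4 was at 1.60 CPM, close to the 1.43 CPM of LHX1. The antisense transcript of WT1 had 0 reads, and PAX8-AS1 ranged from 3.15 to 27.0 CPM, with its highest value in the same library (hypoxia + ITE replicate 6) as that of PAX8.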
